A study of Mus musculus with 16 samples.

Results

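The genes of the voltage-gated calcium channels were followed here through treatment with a calcium channel agonist. The members were 10 subunit genes, Cacna1a, Cacna1b, Cacna1c, Cacna1d, Cacna1h, Cacnb1, Cacnb2, Cacnb3, Cacna2d1 and Cacna2d2, taken as the probe sets whose gene symbol in the platform annotation is one of these names. Where a gene had several such probe sets, the one with the highest mean over all 16 arrays stood for it. Of the 10 genes, 9 had a named probe set, out of 18193 genes with a probe set of 1 symbol, and all 9 were among the 10609 genes above the filter on low values. Cacnb3 was not analysed here.

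A voltage-gated calcium channel is built around a pore-forming alpha1 subunit, which senses voltage, opens on depolarisation and sets the channel class. A beta subunit on the inside of the membrane brings the pore to the surface and shapes its gating, and an alpha2delta subunit on the outside raises the density of channels at the membrane. In pancreatic beta cells, closure of ATP-sensitive potassium channels depolarises the membrane, calcium enters mainly through L-type channels, and this entry triggers the release of insulin granules.

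R7T1 cells, a mouse beta-cell line, were treated and collected after 0.5, 2, 6 or 24 h. The 4 treatments were the compound labelled BayK8644(2a) together with Exendin-4, BayK8644(2a) alone, Exendin-4 alone, and DMSO, with 1 array for each treatment at each time. BayK8644 is a dihydropyridine that binds L-type channels and keeps them open, and Exendin-4 is a peptide agonist of the GLP-1 receptor, which raises cyclic AMP. The labels do not explain the 2a, the compound was taken to be BayK8644, and its dose and that of Exendin-4 are not known here. All groups are 1 cell line, and nothing says that the arrays came from separate cultures. Each p-value therefore speaks only to how far these arrays scatter, possibly for technical reasons. In comparisons of treatments over all times the 4 times stand in for replicates, and in comparisons of times the 4 treatments do. Their scatter includes any effect that changed with time. The SD of a treatment includes differences between times, and the SD of a time those between treatments. In total RNA from a culture, fewer cells that use a gene and less of its RNA per cell cannot be told apart.

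The deposited intensities are given here as log2 values, and a log2 of 4 lies near the background floor of the method. Over the genes tested, the array medians ran from 9.86 to 9.93, and 46.7 to 47.7% of the probe sets of an array reached log2 4. All 11 beta cell markers with a named probe set, of 14 listed, were above that level on every array. Their summed intensity ran between 212274 and 225007 with BayK8644+Exendin-4, 208468 and 221360 with BayK8644, 204623 and 230959 with Exendin-4, and 211946 and 219877 with DMSO. Of 5 named markers of other islet cells, Hhex and Ppy were under log2 4 on all arrays. The summed intensity of those 5 was 853 to 1165 with BayK8644+Exendin-4, 839 to 954 with BayK8644, 618 to 899 with Exendin-4 and 613 to 833 with DMSO, so it was higher on the BayK8644 arrays than on any DMSO array. By gene, with BayK8644 present against absent over all times, the beta cell marker Nkx2-2 fell by 0.32 (limma, adjusted p = 0.0249) and Gcg, an alpha cell hormone gene, rose by 0.31 (adjusted p = 0.0426). At 24 h Nkx2-2 fell by 0.64, Gcg rose by 0.56, and Sst, a delta cell hormone gene, rose by 2.36 (adjusted p = 0.000499, 0.0176 and 0.000218). Nkx2-2 also fell at 2 h and 6 h, and Gcg rose at 6 h. At 24 h the other 10 of the 11 beta cell markers did not pass, and the differences of the 11 were positive for 5 and negative for 6. Irx2, the third tested marker of other islet cells, differed downwards at 24 h and did not pass. Gcg lay between log2 9.08 and 10.06, Sst between 5.09 and 7.61 and Irx2 between 4.19 and 4.92, so the sum of the other islet markers was mostly Gcg. The part of these marker changes in the BayK8644 results below was not tested. At 24 h against 0.5 h Iapp, G6pc2, Chga and Sst rose and Pcsk1 and Cftr fell, and at 6 h Slc2a2, Pcsk1 and Cftr fell. Sst averaged 5.11 at 0.5 h, and at 24 h it averaged 7.49 with BayK8644 present and 5.13 with it absent. Cftr was under log2 4 on 9 arrays. Of 7 acinar and duct markers, 5 were under log2 4 on all arrays, while Cela1 lay between 8.95 and 9.60, and the summed intensity was 627 to 819 with BayK8644+Exendin-4, 558 to 772 with BayK8644, 643 to 756 with Exendin-4 and 540 to 785 with DMSO. Of 10 mesenchymal, endothelial and leukocyte markers, 9 were under log2 4 on all arrays, and their summed intensity was 53.5 to 58.5, 53.3 to 56.3, 54.0 to 57.8 and 54.9 to 61.0 in the same order of treatments.

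Calcium entry and cyclic AMP both act on transcription through CREB, a factor that binds the cyclic AMP response element TGACGTCA or its core TGACG. The start-site windows of the 3 subunit genes on which the results below turn most are therefore printed from RefSeq (GRCm38.p6), 250 bases before to 50 bases after an annotated start, with TGACG in capitals. Cacna2d1 (chr5:15934441-15934740, plus strand) is the member that passed the threshold for time of treatment, Cacna1c (chr6:119196360-119196659, minus strand, the first of its 3 annotated starts) the one with the smallest adjusted p for an agent, and Cacna1b (chr2:24763103-24763402, minus strand) the one that stood farthest above its other arrays in a single Exendin-4 array.
Cacna2d1: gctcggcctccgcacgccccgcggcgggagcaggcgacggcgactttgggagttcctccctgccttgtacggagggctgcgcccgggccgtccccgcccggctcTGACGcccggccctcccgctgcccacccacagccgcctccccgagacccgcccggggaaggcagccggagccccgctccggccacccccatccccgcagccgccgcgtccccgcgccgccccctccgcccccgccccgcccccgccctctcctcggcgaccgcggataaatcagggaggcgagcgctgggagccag
Cacna1c: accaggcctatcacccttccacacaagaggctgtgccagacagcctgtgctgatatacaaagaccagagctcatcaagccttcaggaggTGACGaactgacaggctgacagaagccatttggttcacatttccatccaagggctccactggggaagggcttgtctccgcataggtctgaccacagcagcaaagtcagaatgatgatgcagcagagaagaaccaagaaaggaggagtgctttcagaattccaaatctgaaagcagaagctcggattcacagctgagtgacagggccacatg
Cacna1b: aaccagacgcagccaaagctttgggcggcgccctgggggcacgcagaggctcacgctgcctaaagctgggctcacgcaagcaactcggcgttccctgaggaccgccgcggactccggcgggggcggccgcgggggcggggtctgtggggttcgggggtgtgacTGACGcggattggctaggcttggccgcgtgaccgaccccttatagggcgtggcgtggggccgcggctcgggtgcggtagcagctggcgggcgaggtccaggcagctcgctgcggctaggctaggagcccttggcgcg
The capitals lie at -146, -161 and -87 from the start site in Cacna2d1, Cacna1c and Cacna1b. The table held 14 start-site windows of 8 of the listed genes. With both strands searched, TGACG was found in 4 of the 14 (28.6%), these 3 and the second start of Cacnb2 (chr2:14823842-14824141, plus strand, at -117), against 20.8% of 32851 windows of all genes. The whole TGACGTCA, which contains TGACG, was found in 0 of the 14 and in 1.79% of all windows, and the AP-1 motif TGANTCA, with N for any base, in 0 of the 14 and in 7.81% of all windows. A match describes these letters only, and the probe sets do not tell which start a transcript used.

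None of the 9 representative probe sets fell under log2 4 on any of the 16 arrays. The 9 genes have 28 probe sets with their symbol, and 8 of these were under log2 4 on all 16 arrays, 3 for Cacna1a, 3 for Cacnb1 and 2 for Cacna2d2. The presence of those 3 genes therefore rests on 1 probe set each. A probe set of Cacna2d1 (1441608_at) was under log2 4 on 13 arrays. Levels of different probe sets depend on their probes and are not set against each other here.

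**Figure D1:**
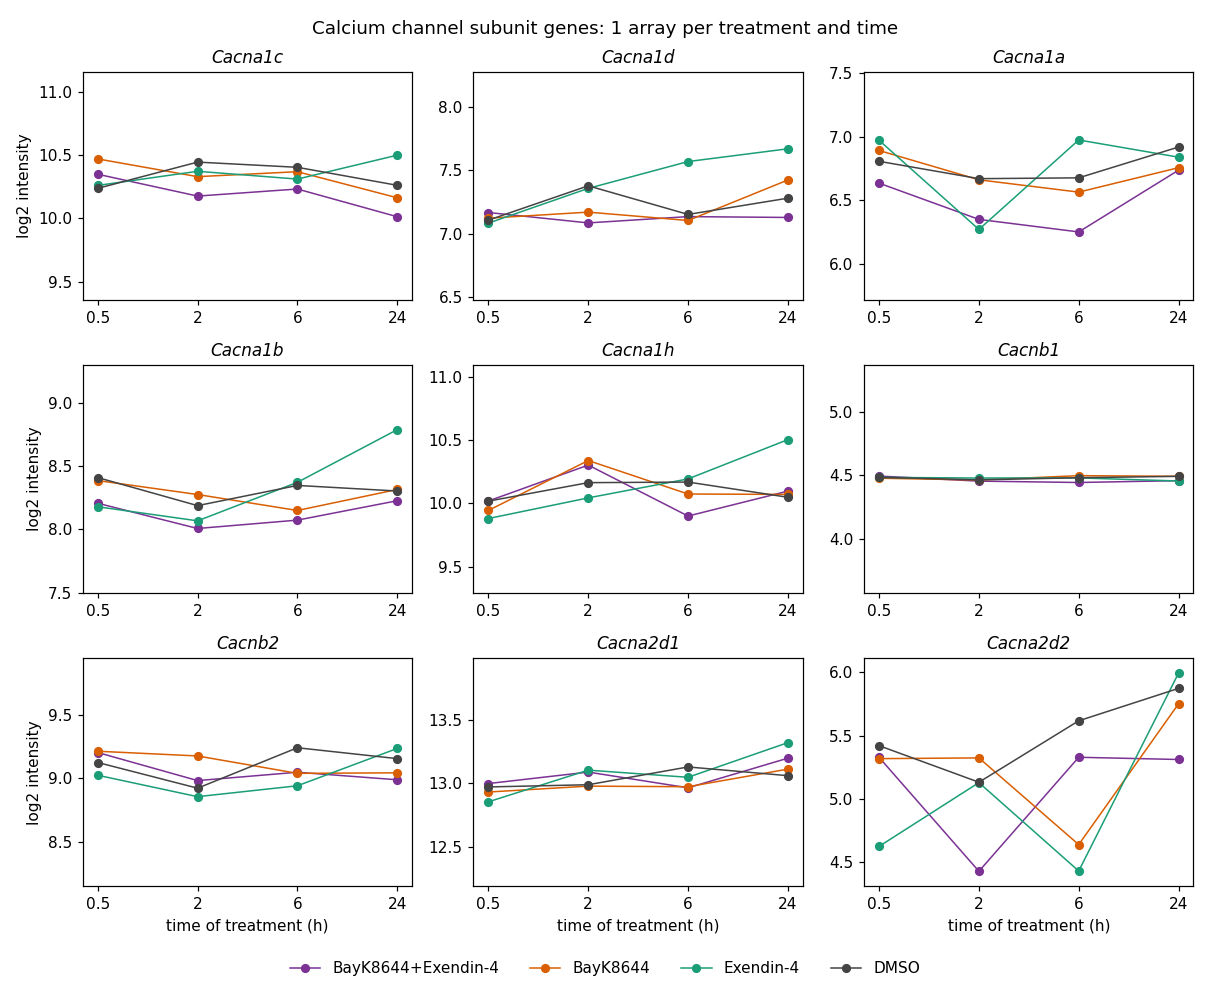
Log2 intensity (y axis) of the 9 subunit genes at 0.5, 2, 6 and 24 h of treatment (x axis, evenly spaced), with 1 point per array and 1 line per treatment. Each panel has its own y axis, 1.8 log2 units high; Cacnb1 stays between 4.44 and 4.50 on all 16 arrays, Cacna2d2 runs between 4.43 and 5.99, and the Exendin-4 array of 24 h is the highest of all 16 for 6 genes.

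Among the L-type pore subunits, which are the channels BayK8644 acts on, Cacna1c (probe set 1421297_a_at) lay between log2 10.01 and 10.50. At 0.5, 2, 6 and 24 h it read 10.35, 10.18, 10.23 and 10.01 with BayK8644+Exendin-4 and 10.47, 10.33, 10.37 and 10.16 with BayK8644. Over the same times it read 10.26, 10.37, 10.31 and 10.50 with Exendin-4 and 10.24, 10.44, 10.40 and 10.26 with DMSO. Both arrays with BayK8644 stood above both without it at 0.5 h, and below both at 2 h and at 24 h. With 2 arrays on a side such an ordering often arises by chance, and its share over all genes was not counted. At 24 h the mean was 10.09 with BayK8644 present and 10.38 with it absent (n = 2 each), a difference of -0.29 ± 0.10 (SE; 95% interval -0.52 to -0.07), and this did not pass the threshold after adjustment over all 10609 genes (limma, adjusted p = 0.126). At that time 5.1% of all genes tested passed. The BayK8644 effect at 24 h minus that at 0.5 h was -0.45 (95% interval -0.77 to -0.14, limma, adjusted p = 0.190). Without the Exendin-4 array of 24 h, the 24 h difference was -0.10 (adjusted p = 0.744), and without the BayK8644+Exendin-4 array it was -0.10 (adjusted p = 0.741), each being BayK8644 against DMSO with 1 array on a side. With a single 24 h array left out, either BayK8644 or DMSO, it was -0.49, which is 1 BayK8644+Exendin-4 array against 1 Exendin-4 array, and the adjusted p of 0.0209 takes its spread from the other times, on the assumption that 24 h varies alike. The second Cacna1c probe set (1435730_at) differed by -0.37 at 24 h (adjusted p = 0.333 over all probe sets).

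Cacna1d (1427974_s_at), the other L-type pore of beta cells, lay between 7.08 and 7.67. It read 7.17, 7.09, 7.14 and 7.13 with BayK8644+Exendin-4 over the 4 times, and 7.12, 7.17, 7.10 and 7.42 with BayK8644. With Exendin-4 it read 7.08, 7.36, 7.57 and 7.67, and with DMSO 7.11, 7.38, 7.15 and 7.28. The 4 treatments lay within 7.08 to 7.17 at 0.5 h and within 7.13 to 7.67 at 24 h, where BayK8644+Exendin-4 was lowest and Exendin-4 highest. Over all treatments the gene averaged 7.38 ± 0.23 at 24 h and 7.12 ± 0.04 at 0.5 h (SD, n = 4 each), a difference of 0.26 (95% interval 0.04 to 0.47) that missed the threshold (limma, adjusted p = 0.0818), with overlapping groups. Without the BayK8644+Exendin-4 array of 0.5 h that difference was 0.33 and passed (adjusted p = 0.0439). Without the Exendin-4 array of 24 h it was 0.20 (adjusted p = 0.196). Over all times the gene averaged 7.17 with BayK8644 present and 7.33 with it absent (n = 8 each), a difference of -0.16 (95% interval -0.31 to -0.01, limma, adjusted p = 0.175), and the groups overlapped. Its second probe set (1428051_a_at) differed by -0.19 in the same comparison (adjusted p = 0.110 over all probe sets).

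Cacna1a (1450510_a_at), the pore of P/Q-type channels, lay between 6.25 and 6.98. It read 6.63, 6.35, 6.25 and 6.74 with BayK8644+Exendin-4 and 6.89, 6.66, 6.56 and 6.76 with BayK8644. With Exendin-4 it read 6.97, 6.27, 6.98 and 6.84, and with DMSO 6.81, 6.67, 6.68 and 6.92. BayK8644+Exendin-4 was below DMSO at 4 of 4 times, while the Exendin-4 values at 2 h and 6 h were among the lowest and the highest of all arrays. The mean was 6.49 ± 0.23 with BayK8644+Exendin-4 and 6.77 ± 0.12 with DMSO (SD, n = 4 each), a difference of -0.28 (95% interval -0.53 to -0.02, limma, adjusted p = 0.145), with overlapping groups. At 6 h the difference between BayK8644 present and absent was -0.42 (95% interval -0.80 to -0.04, limma, adjusted p = 0.283), with both BayK8644 arrays below both others (2.47% of all genes tested passed there, and the share so ordered was not counted). At 2 h against 0.5 h it was -0.34 (95% interval -0.59 to -0.09, adjusted p = 0.110), and at 24 h against 0.5 h it was -0.01 (95% interval -0.27 to 0.24).

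Cacna1b (1439612_at), the pore of N-type channels, lay between 8.01 and 8.79. It read 8.21, 8.01, 8.07 and 8.23 with BayK8644+Exendin-4 and 8.39, 8.27, 8.15 and 8.31 with BayK8644. With Exendin-4 it read 8.18, 8.07, 8.37 and 8.79, and with DMSO 8.41, 8.19, 8.35 and 8.30. The Exendin-4 array of 24 h was 0.38 above the next highest array, a DMSO array, and BayK8644+Exendin-4 was below DMSO at 4 of 4 times. The other probe sets did not all share the latter. 1436602_x_at read 7.04, 7.24, 6.81 and 6.89 with BayK8644+Exendin-4, and 6.83, 6.57, 6.83 and 6.53 with DMSO. 1460608_at was lower than DMSO at 0.5 and 24 h and higher at 2 and 6 h. 1425812_a_at was slightly lower at each time. The difference between BayK8644+Exendin-4 and DMSO was -0.18 (95% interval -0.41 to 0.04, limma, adjusted p = 0.274). At 24 h, BayK8644 present against absent gave -0.27 (95% interval -0.59 to 0.04, adjusted p = 0.289). With a single 24 h array left out, either BayK8644 or DMSO it was -0.56, again 1 array against 1, with an adjusted p of 0.0363 that takes its spread from the other times.

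Cacna1h (1422710_a_at), a T-type pore that opens at more negative voltages, lay between 9.88 and 10.50. It read 10.02, 10.30, 9.90 and 10.10 with BayK8644+Exendin-4 and 9.95, 10.34, 10.07 and 10.07 with BayK8644. With Exendin-4 it read 9.88, 10.04, 10.19 and 10.50, and with DMSO 10.02, 10.16, 10.17 and 10.05. All 4 arrays of 24 h and all 4 of 2 h were above the 4 of 0.5 h, so those groups did not overlap (23.6% of all genes tested passed at 24 h against 0.5 h and 4.68% at 2 h against 0.5 h). The share of all genes without overlap was not counted. The second Cacna1h probe set (1427607_at) did not share this. It lay between 5.84 and 5.92 at 0.5 h, 5.74 and 6.48 at 2 h, and 5.82 and 5.96 at 24 h. For 1422710_a_at the difference was 0.21 at 24 h against 0.5 h (95% interval -0.01 to 0.44, limma, adjusted p = 0.153). At 2 h against 0.5 h it was 0.25 (95% interval 0.02 to 0.47, limma, adjusted p = 0.184).

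Of the beta subunits, Cacnb2 (1456401_at) lay between 8.86 and 9.24 and Cacnb1 (1426108_s_at) between 4.44 and 4.50. Cacnb2 read 9.20, 8.98, 9.05 and 8.99 with BayK8644+Exendin-4, 9.21, 9.18, 9.04 and 9.04 with BayK8644, 9.03, 8.86, 8.94 and 9.24 with Exendin-4, and 9.13, 8.92, 9.24 and 9.16 with DMSO. For Cacnb2 both arrays with BayK8644 were above both without it at 0.5 h and at 2 h, and below both at 24 h. The share of all genes so ordered was not counted. The differences at those times were 0.13 (95% interval -0.11 to 0.38), 0.19 (-0.05 to 0.43) and -0.18 (-0.42 to 0.06), and none passed (limma, smallest adjusted p = 0.362). BayK8644 present against absent over all times, which averages these opposite signs, gave 0.02 (95% interval -0.10 to 0.15, limma, adjusted p = 0.830). The second Cacnb2 probe set (1452476_at) shared the order at 0.5 h and 24 h but not at 2 h. At 24 h it read 8.31 with BayK8644+Exendin-4 and 8.40 with BayK8644, against 8.60 with Exendin-4 and 8.80 with DMSO. At 2 h it read 8.41 and 8.75 against 8.40 and 8.55 in that order. Cacnb1 had a range of 0.05 over 16 arrays, and 0.0566% of all genes tested had a smaller one. The median range was 0.50 over all genes tested and 0.06 over the 6156 genes under log2 3 on all arrays, so the spread of Cacnb1 was like that of genes at the floor although its level was not under log2 4.

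Cacna2d1 (1433643_at), an alpha2delta subunit, was the one member that passed the threshold in any comparison, and it was higher at 24 h than at 0.5 h. At 0.5, 2, 6 and 24 h it read 13.00, 13.09, 12.97 and 13.20 with BayK8644+Exendin-4 and 12.93, 12.98, 12.97 and 13.11 with BayK8644. With Exendin-4 it read 12.86, 13.11, 13.05 and 13.32, and with DMSO 12.97, 12.99, 13.13 and 13.06. All 4 arrays of 24 h were above all 4 of 0.5 h. The mean was 13.17 ± 0.11 at 24 h and 12.94 ± 0.06 at 0.5 h (SD, n = 4 each), a difference of 0.23 ± 0.06 (SE; 95% interval 0.11 to 0.35), or 1.18-fold (limma, adjusted p = 0.00866). In that comparison 1 of 9 members passed, against 23.6% of all genes tested, of which 10.6% rose and 13% fell. Without the Exendin-4 array of 24 h, the highest of all, the difference was 0.18 (adjusted p = 0.0255).

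The other probe sets of Cacna2d1 did not follow the representative one. At 24 h against 0.5 h they differed by -0.25 (1425861_x_at), 0.09 (1440397_at), -0.14 (1449999_a_at) and 1.10 (1441608_at, mostly under log2 4), and none of the 4 passed (limma over all probe sets, adjusted p = 0.191 to 0.681). With the mean of the probe sets above the filter instead, the difference was 0.20 and did not pass (limma, adjusted p = 0.348). That mean includes 1441608_at, whose 1.10 was the largest of these differences, while 1425861_x_at and 1449999_a_at differed downwards. Exendin-4 present against absent at 24 h gave 0.17 for the representative probe set (95% interval 0.03 to 0.32, adjusted p = 0.810).

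Cacna2d2 (1426185_at), the second alpha2delta subunit, had the widest spread of the 9, from 4.43 to 5.99, a range wider than that of 97.2% of all genes tested. It read 5.33, 4.43, 5.33 and 5.31 with BayK8644+Exendin-4 and 5.32, 5.32, 4.64 and 5.75 with BayK8644. With Exendin-4 it read 4.63, 5.13, 4.43 and 5.99, and with DMSO 5.42, 5.13, 5.62 and 5.87. Low values were thus scattered over 3 treatments and 3 times, and the 24 h values were the highest of each treatment except BayK8644+Exendin-4. The mean was 5.73 ± 0.30 at 24 h and 5.17 ± 0.37 at 0.5 h (SD, n = 4 each), a difference of 0.56 (95% interval 0.03 to 1.09, limma, adjusted p = 0.120). BayK8644+Exendin-4 was below DMSO at 4 of 4 times, with a difference of -0.41 over all times (95% interval -0.94 to 0.12, adjusted p = 0.293).

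Across the 15 comparisons on an agent, 0 of 135 member values passed the threshold in limma, 6 had an unadjusted p under 0.05, and the smallest adjusted p was 0.126. The comparisons share arrays and are not independent. With robust eBayes, and with eBayes without the intensity trend, 0 passed as well. BayK8644 present against absent over all times (n = 8 each) gave differences between -0.16 and 0.02 for the 9 members, while 8.55% of all genes tested passed. The 95% intervals reached from -0.47 to 0.28, and from -0.34 to 0.15 without Cacna2d2. Exendin-4 present against absent over all times gave -0.31 to 0.06, with intervals from -0.69 to 0.21, and 0% of all genes passed (1317 genes at an unadjusted p under 0.05).

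Against DMSO over all times, and with the DMSO arrays shared between comparisons, the members differed by -0.41 to 0.02 with BayK8644+Exendin-4, where 6.98% of all genes passed. They differed by -0.25 to 0.01 with BayK8644, where 0.839% passed, and by -0.47 to 0.19 with Exendin-4, where 0% passed (698 genes at an unadjusted p under 0.05). The interaction, which is how far the effect of both agents departs from the sum of the separate effects, lay between -0.27 and 0.31 with intervals from -0.58 to 1.06, and 0% of all genes passed (710 at an unadjusted p under 0.05). The upper end of 1.06 is that of Cacna2d2, the member with the widest spread.

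**Figure D2:**
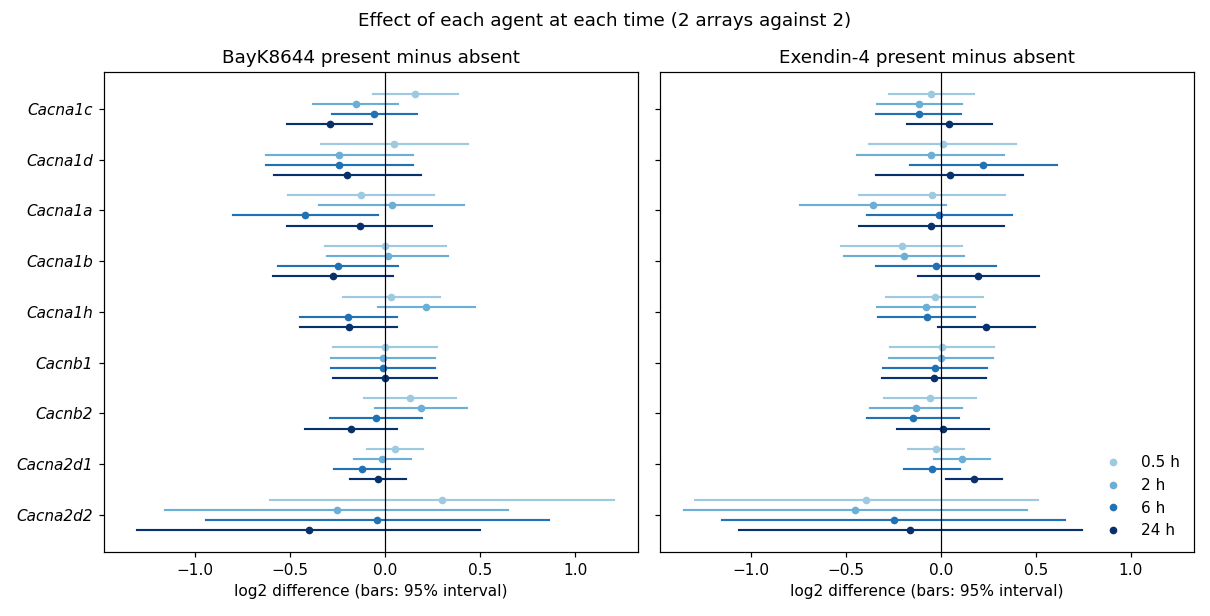
Differences in log2 intensity (x axis) between arrays with and without each agent, for the 9 subunit genes (y axis) at 0.5, 2, 6 and 24 h, with 95% intervals as bars and darker points for later times. Left, BayK8644 present minus absent; right, Exendin-4 present minus absent; each rests on 2 arrays against 2. Each point is that of the representative probe set of a gene. For BayK8644 all 9 points lie below 0 at 6 h and 8 of 9 at 24 h, and no difference passed the adjusted threshold.

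By time, the BayK8644 differences were positive for 8 and negative for 1 of the 9 members at 0.5 h (0.217% of all genes passed), with a median of 0.05 against 0.01 over all genes. At 2 h 4 were positive and 5 negative, with a median of -0.01 against -0.01, and 1.63% of all genes passed. At 6 h 0 were positive and 9 negative, with a median of -0.12 against 0.01, and 2.47% of all genes passed. At 24 h 1 was positive and 8 negative, with a median of -0.19 against 0.01. The change of the effect between 24 h and 0.5 h had a median of -0.25 over the members and 0.00 over all genes, of which 0.98% passed. These counts describe 1 set of arrays at each time, in which all members share the same arrays. They hold for the representative probe sets, and other probe sets went both ways at 6 h. Cacna1h 1427607_at read 6.84 with BayK8644+Exendin-4 and 6.25 with BayK8644, against 5.88 with Exendin-4 and 5.79 with DMSO. In the same order Cacna2d1 1440397_at, also higher, read 9.92 and 10.03 against 9.63 and 9.65. Cacna1c 1435730_at, which was lower, read 9.36 and 9.46 against 9.66 and 9.59.

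The Exendin-4 differences were positive for 2 and negative for 7 members at 0.5 h and again at 2 h, with medians of -0.05 and -0.11 against 0.01 and 0.02 over all genes. They were positive for 1 and negative for 8 at 6 h, with a median of -0.05 against 0.01, and positive for 6 and negative for 3 at 24 h, with a median of 0.04 against 0.01. The percentages of all genes that passed were 0.00943% at 0.5 h, 0.0189% at 2 h, and 0% at 6 h and at 24 h (738 and 626 genes at an unadjusted p under 0.05). No member passed at any time.

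The Exendin-4 array of 24 h held the highest value of 6 of the 9 members, Cacna1b, Cacna1c, Cacna1d, Cacna1h, Cacna2d1 and Cacna2d2, against 8.32% of all genes tested. It held the lowest value of 0 members and of 12.9% of all genes. Above the DMSO array of the same time it stood by 0.48 for Cacna1b, 0.45 for Cacna1h, 0.39 for Cacna1d, 0.26 for Cacna2d1, 0.24 for Cacna1c and 0.12 for Cacna2d2. BayK8644+Exendin-4 minus Exendin-4 at 24 h was -0.56, -0.41, -0.54, -0.12, -0.49 and -0.68 for the same genes in that order. BayK8644 minus DMSO at 24 h was 0.01, 0.02, 0.14, 0.05, -0.10 and -0.12. Each of these is 1 array against 1, with no spread of its own.

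The other probe sets shared this pattern for some of the 6 genes only. Of their 10 other probe sets above the filter, 5 were highest on the same array. All 4 probe sets of Cacna1b were highest there, at 8.79, 7.40, 7.27 and 6.46. The second Cacna1c probe set was highest there too, at 10.24, against 9.45 with BayK8644+Exendin-4, 9.64 with BayK8644 and 9.58 with DMSO at 24 h. The second probe sets of Cacna1d and Cacna1h were not highest there. On that array 47.7% of probe sets reached log2 4, the most of any array, and the Actb signal at the 3' end exceeded that at the 5' end by 0.69, inside the range of 0.59 to 0.80 over all arrays. The part of the array itself in the pattern was not tested.

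**Figure D3:**
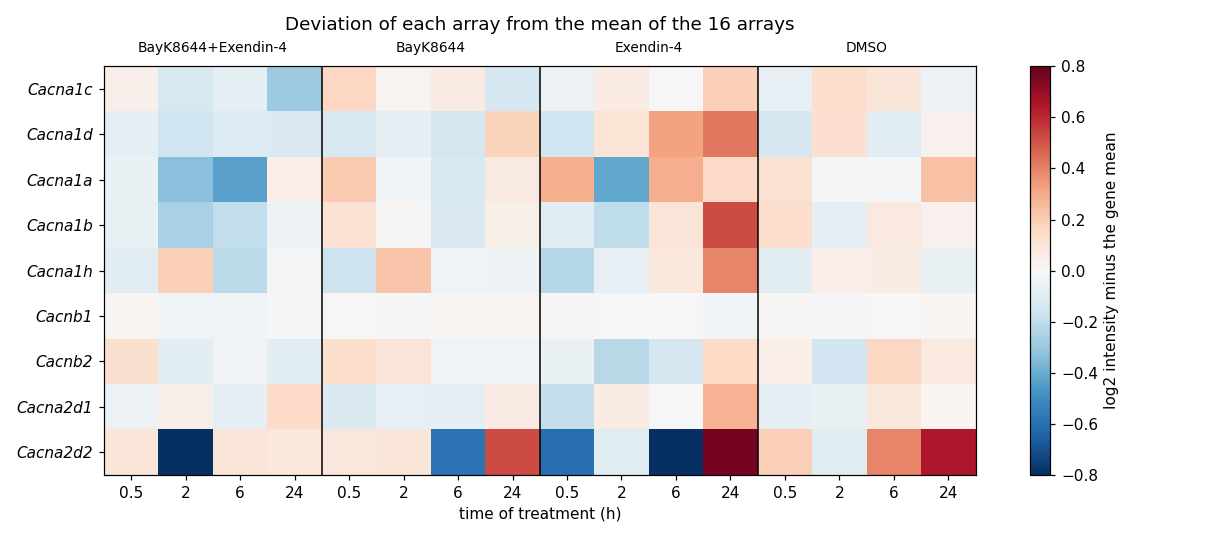
Deviation of log2 intensity from each gene's mean over the 16 arrays (colour, -0.8 to 0.8, red above and blue below), for the 9 subunit genes (rows) on each array (columns, by treatment and then by time of 0.5, 2, 6 and 24 h). The Exendin-4 column of 24 h holds the highest value of the row for Cacna1b, Cacna1c, Cacna1d, Cacna1h, Cacna2d1 and Cacna2d2, and the Cacnb1 row is nearly blank.

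Among the other subunit genes of the family, 16 were listed, 15 had a named probe set and 3 were above the filter, Cacna1g, Cacng4 and Cacng5. The remaining 12 included Cacna2d3, which reached log2 4 on 1 array. Cacna1g, a second T-type pore, fell with time of treatment. It averaged 6.11 at 6 h and 6.62 at 0.5 h (n = 4 each), a difference of -0.51 ± 0.11 (SE, limma, adjusted p = 0.0143), where 8.41% of all genes passed. At 24 h it averaged 6.24, a difference of -0.38 from 0.5 h (adjusted p = 0.0199), with no overlap between the groups. Cacng4 and Cacng5, which encode gamma subunits, passed in no comparison by their representative probe sets. None of the 3 genes passed for an agent, where 0% to 8.55% of all genes tested passed. A second Cacng4 probe set (1455230_at) rose by 0.23 at 24 h against 0.5 h (adjusted p = 0.0296 over all probe sets). Cacna1g and Cacna1h are both T-type pores, and their differences at 24 h against 0.5 h had opposite signs, though that of Cacna1h did not pass and the contrast between the genes was not tested.

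Gem, Rem2, Rrad and Rem1 encode the RGK GTPases, which bind the beta subunits and reduce calcium current. Rem1 had no named probe set and was not analysed here. Gem, Rem2 and Rrad rose with BayK8644 present against absent over all times (n = 8 each), where 8.55% of all genes tested passed. Of the 9 members 0 passed, which is near that share, and the RGK genes were listed with earlier results of these data known. Gem averaged 11.24 with BayK8644 present and 10.39 with it absent, a difference of 0.85 (95% interval 0.67 to 1.04, limma, adjusted p = 0.000103), with no overlap. Rem2 averaged 9.09 with BayK8644 present and 8.24 with it absent, a difference of 0.85 (95% interval 0.56 to 1.14, adjusted p = 0.00315). Rrad differed by 0.99 (95% interval 0.37 to 1.60, adjusted p = 0.0499), but was under log2 4 on 14 of 16 arrays, so this size is no measured fold.

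Gem, Rem2 and Rrad differed in timing. Gem differed by 1.04 at 0.5 h, 0.79 at 2 h, 0.81 at 6 h and 0.76 at 24 h with BayK8644 present, and rose at each of these times. Rem2 differed by 0.05 at 0.5 h, where it did not pass, and rose by 1.07 at 2 h, 1.18 at 6 h and 1.11 at 24 h. Its effect at 24 h minus that at 0.5 h was 1.06 (limma, adjusted p = 0.0230). Rrad passed at 2 h, where it read 5.35 with BayK8644+Exendin-4 and 5.38 with BayK8644, against 2.73 with Exendin-4 and 2.57 with DMSO, both under log2 4. Its call at 6 h rests on 4 values that were all under log2 4, and it did not pass at 0.5 h or 24 h. None of the tested RGK genes passed for Exendin-4.

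**Figure D4:**
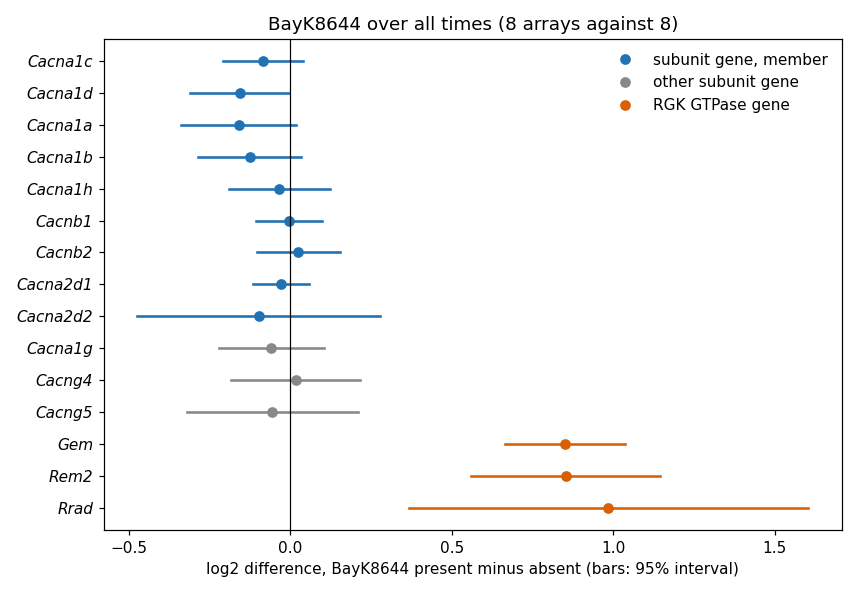
Difference in log2 intensity between the 8 arrays with and the 8 without BayK8644 over all times (x axis; points, with 95% intervals as bars) for the 9 subunit genes, 3 other subunit genes and 3 RGK GTPase genes (y axis). The subunit genes lie between -0.16 and 0.02, and Gem, Rem2 and Rrad lie at 0.85, 0.85 and 0.99, with Rrad under log2 4 on 14 of 16 arrays.

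Of 50 listed genes for calcium entry, release, extrusion, sensing and membrane potential, 43 had a named probe set and 33 were tested. None of the 33 passed in any of the 15 comparisons on an agent, in which 0% to 8.55% of all genes tested passed. At 24 h against 0.5 h 4 rose and 3 fell, with a median over the 33 of 0.04 against 0.00 over all genes, of which 23.6% passed, so the count was near that of genes at large. Those that rose were Hpcal1, a neuronal calcium sensor (0.46), Orai2, a pore of store-operated entry (0.52), Camk4, a calmodulin-dependent kinase (0.37), and Abcc8, the sulfonylurea receptor of the ATP-sensitive potassium channel (0.28). Those that fell were Micu2, a regulator of the mitochondrial calcium uniporter (-0.18), Ppp3cb, a catalytic subunit of calcineurin (-0.18), and Trpm5, a calcium-activated cation channel (-0.29). At 6 h against 0.5 h Nalcn, a sodium leak channel (-0.36), and Micu2 (-0.20) fell, while 8.41% of all genes passed. At 2 h against 0.5 h Cabp1, a calmodulin-like calcium-binding protein, rose (0.42), where 4.68% of all genes passed. No member passed at 2 h or at 6 h against 0.5 h.

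The members did not move as a block over the 16 arrays. Pearson's r between pairs of the 9 ran from -0.37 for Cacna1h with Cacnb1 to 0.67 for Cacna1h with Cacna2d1. These values are descriptions over 16 arrays that share treatments, times and normalization. For the members with a range of at least 0.5, the most similar gene among all tested was Chd1 for Cacna1h (r = 0.91, and 0.86 without the 2 arrays farthest from the median), Ccnt1 for Cacna1d (0.88 and 0.64), Rims2 for Cacna1b (0.86 and 0.61), Mapk9 for Cacna2d2 (0.82 and 0.71) and Styk1 for Cacna1a (0.82 and 0.85). Spearman's rho for these 5 pairs was 0.96, 0.77, 0.69, 0.76 and 0.92 in the same order. For Cacna1d and Cacna1b the likeness dropped most when the 2 farthest arrays were left out.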

How the data were processed

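RNA of R7T1 cells was measured on 16 Affymetrix arrays, each with 1 colour and 45101 probe sets, 1 array for each of 4 treatments at 4 times, with groups taken from the labels. The deposited intensity values are on a linear scale, and the submitters' processing notes name GCRMA, which models background from the probe's bases, normalizes quantiles across arrays and combines probes into probe sets. The version of GCRMA is not given in the sources. For the tests the deposited intensity was log2-transformed without a pseudocount. The number of arrays limits the precision.

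Gene names came from the platform annotation, which gave 34945 probe sets 1 gene symbol and 932 several. Those with several or none were left out. A gene was tested where its highest-mean probe set reached log2 4 (an intensity of 16) on at least 2 arrays. Cacnb3 had no probe set named by 1 symbol in the annotation used here and was not analysed here, nor were the listed markers without one.

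limma 3.58.1 in R 4.3.3 (lmFit, and eBayes with an intensity trend) was fitted over all 10609 genes. Comparisons over all times used time and treatment as terms, with 9 residual degrees of freedom. Effects at single times used each agent at each time, with 4 residual degrees of freedom and the agents' effects taken to add. A p adjusted by Benjamini-Hochberg over all genes under 0.05 passed, and p-values are two-sided. Intervals are 95% intervals for a single comparison. The fit was tested on simulated data.

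Named genes were all members, and from the lists of other subunit genes, calcium handling genes and RGK genes those past the threshold, with the most similar genes by Pearson's r for members with a range of at least 0.5. Members, lists and cell type markers were chosen with earlier results of these data known. Alternatives were other filters, a pseudocount, array centring, other variance models, no time term, the mean of a gene's probe sets, single arrays left out, and, chosen after seeing the data, each probe set tested on its own.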

Additional observations from a re-analysis of the deposited data

Results flagged for a closer look

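Within the 4 BayK8644+Exendin-4 arrays, the Cacna2d2 value at 2 h stood apart from the rest. It was log2 4.43, while the arrays of the other times lay between 5.31 and 5.33, and its gap to the nearest of them was 0.98 of the whole range of the group. The 9 members in 4 treatments gave 36 such groups of 4 arrays, and chance alone sets about 1 in 20 groups apart in this way. Cacna2d2 values of 4.43 and 4.64 were also read on an Exendin-4 and a BayK8644 array of 6 h, and 4.63 on an Exendin-4 array of 0.5 h. The cause was not tested.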

How the results depend on the processing

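Under 9 settings other than single arrays, the number of members past the threshold was within 1.5 times in all but 1 of 150 comparison and setting pairs. The exception was 24 h against 0.5 h, where 1 member passed and 0 did with the mean of the probe sets above the filter, and the cause was not tested. Cacna2d1 kept its call in 23 of 24 settings, with differences of 0.18 to 0.28 and adjusted p of 0.00344 to 0.348. The mean of its probe sets includes 1441608_at, which was mostly under log2 4 and differed upwards the most. Leaving out single arrays gave 1 to 2 members at 24 h against 0.5 h (2 without the BayK8644+Exendin-4 array of 0.5 h, which added Cacna1d). The results for BayK8644 at 24 h, and for its effect at 24 h minus that at 0.5 h, changed on leaving out BayK8644 or DMSO at 24 h. The 24 h differences were then -0.56 for Cacna1b and -0.49 for Cacna1c, each 1 array against 1 with the spread of the other times. The change of effect was -0.65 for Cacna1c, of which the 24 h part is 1 array against 1 and the 0.5 h part 2 against 2. The other 15 comparisons gave 0 members without any single array, and no direction of a passing value reversed. Single arrays per treatment and time, and values near log2 4 for Cacnb1 and Cacna2d2, limit these results. The labels carry no replicate numbers. Arrays of the same time were matched by the time term, and without that term 0 members passed in each of the 6 comparisons of treatments over all times.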
